A study of Mus musculus with 2 samples.

Results

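The proteasome genes of the mouse hippocampus were described from long-read RNA sequencing, a method whose reads can cover a cDNA from end to end. The genes were those annotated as protein-coding whose symbol starts with Psm, a letter from a to g and a number, and 50 genes fitted this rule. Of these, 46 had reads in both count tables and are the members described here, out of 13066 protein-coding genes with reads in both tables. The study holds 1 group of 2 libraries, from tissue labelled as a layer of hippocampus of female B6CASTF1/J mice aged 2 months, a first-generation hybrid of the C57BL/6J and CAST/EiJ strains. The labels number the libraries as biological replicates 1 and 2 and give both the same donor identifier, and they do not say whether the tissue came from separate animals. There was no treated, mutant or control group, so levels and isoforms are described, and the tests compare the 2 libraries only.

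Replicate 1 held 826596 reads outside the spike-ins and replicate 2 held 745492, and members took 3880 and 3451 of them. That is 0.469% and 0.463% of the reads, or 4662 ± 45.8 counts per 1000000 reads (CPM; mean and SD here and below, n = 2 libraries). Each read counted for 1.21 CPM in the first library and 1.34 CPM in the second. Markers of excitatory neurons had a median of 1193 ± 16.4 CPM, from Hpca at 2191 ± 38.9 CPM down to Prox1, a marker of dentate granule cells, at 19.4 ± 8.61 CPM. Astrocyte and oligodendrocyte markers had medians of 592 ± 20.3 and 383 ± 14.5 CPM, so the libraries are of mixed cells, though the oligodendrocyte marker Mog had 6.25 ± 3.14 CPM.

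The proteasome is the barrel-shaped protease that degrades proteins tagged with ubiquitin. Its 20S core stacks rings of alpha subunits, which form the gate, and rings of beta subunits, of which 3 carry the cutting sites. The 19S cap holds a ring of ATPases that unfolds substrates and threads them into the core, and non-ATPase subunits that bind and cut off ubiquitin, and core and cap together make the 26S particle. Immune cells, and other cells exposed to interferon, swap the 3 catalytic beta subunits for immune versions that favour peptides for antigen presentation. Assembly chaperones build the particle and leave it, and separate activators and an inhibitor bind the ends of the core. In neurons the proteasome is known for its part in synaptic plasticity and in the removal of damaged proteins.

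The cutting sites set the immune and the constitutive subunits side by side, so the coding bases around them are shown. Each of these beta subunits is made with a leader that is cut off to expose a threonine, which does the catalysis. The codon of this threonine is in capitals below, with 15 bases before it and 27 after it, from GENCODE M21 transcripts on mm10, and where a stretch crosses an intron its coordinates span the intron.
Psmb8 (immune, chr17:34199287-34199331, plus strand): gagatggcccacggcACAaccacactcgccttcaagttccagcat
Psmb5 (constitutive, chr14:54616813-54617829, minus strand): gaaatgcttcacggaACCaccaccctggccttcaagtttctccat
Psmb9 (immune, chr17:34185768-34187264, minus strand): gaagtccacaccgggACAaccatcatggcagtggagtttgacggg
Psmb6 (constitutive, chr11:70525481-70525914, plus strand): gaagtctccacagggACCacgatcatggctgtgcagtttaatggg
Psmb10 (immune, chr8:105937589-105937720, minus strand): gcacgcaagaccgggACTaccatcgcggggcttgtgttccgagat
Psmb7 (constitutive, chr2:38642273-38643399, minus strand): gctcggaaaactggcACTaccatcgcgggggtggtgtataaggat
Over the whole coding sequence, Psmb8 and Psmb5 were identical at 67.9% of 783 aligned bases, Psmb9 and Psmb6 at 66.2% of 657, and Psmb10 and Psmb7 at 63.3% of 812. The leader before the threonine was 72 codons long in Psmb8 and 59 in Psmb5, 20 in Psmb9 and 33 in Psmb6, and 39 in Psmb10 and 43 in Psmb7.

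Transcripts of the immune catalytic subunits were few, except for Psmb10. Psmb8, which replaces Psmb5, had 6 reads in replicate 1 and 11 in replicate 2, against 102 and 123 reads of Psmb5. Its share of the pair was 5.56% (95% Clopper-Pearson interval 2.07 to 11.7%) and 8.21% (4.17 to 14.2%). Most Psmb8 reads also covered only a part of the last exon. A 185-base model at chr17:34201266-34201450, in exon 6 of 6, held 4 and 11 of them. It lies after the end of the coding sequence at 34201263. Reads within 1 exon do not show whether their RNA was spliced. Only 2 and 0 Psmb8 reads had a complete chain of introns. The GENCODE gene Gm20496, with 0 reads in both libraries, lies on the other strand of this locus. Counted on complete chains alone, Psmb8 made up 2.00% and 0% of the pair, with intervals of 0.243 to 7.04% and 0 to 3.16%.

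Psmb9, which replaces Psmb6, had 2 reads in replicate 1 and 0 in replicate 2, against 168 and 133 reads of Psmb6. With reads in 1 table only, Psmb9 is not a member. Its share of the pair was 1.18% (0.143 to 4.19%) in replicate 1, and 0 of 133 reads in replicate 2 allowed up to 2.74%. Psmb10, which replaces Psmb7, was close to its partner, with 29 and 32 reads against 30 and 42 reads of Psmb7. Its share of the pair was 49.2% (35.9 to 62.5%) and 43.2% (31.8 to 55.3%). On complete chains it was lower, at 32.6% (19.1 to 48.5%) and 29.6% (18.0 to 43.6%), because 15 and 16 of the Psmb10 reads were partial. The most-read partial model of Psmb10 had 7 exons and 9 and 8 reads, at chr8:105935735-105938092.

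The list of 10 genes of class I antigen presentation had a median of 12.2 ± 2.69 CPM with its 0-read gene counted, against 24.2 ± 0.0357 CPM for protein-coding genes with reads in both libraries, and 3 of its genes were above that. These were the light chain gene B2m at 45.5 ± 7.47 CPM, the class I gene H2-D1 at 52.8 ± 0.648 CPM and the peptide-loading gene Tapbp at 46.6 ± 4.30 CPM, while the peptide transporter gene Tap1 stood at 6.31 ± 1.34 CPM, and the class I regulator gene Nlrc5 had no read. Microglia markers, which belong to the immune cells of the brain, had a median of 40.3 ± 5.64 CPM over 8 genes, with summed levels of 312 CPM in replicate 1 and 357 CPM in the other library. Of 7 lymphocyte markers, 6 had no read, and Ptprc had 2 reads in replicate 1 and 0 in replicate 2. In bulk tissue, fewer cells of a type and less RNA per cell cannot be told apart, so the cell type behind the Psmb10 and Psmb8 reads was not tested.

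The other genes of the name rule without members' reads were Psmb11, known from the thymus, Psma8, known from the testis, and Psme2b, each at 0 reads in both libraries. A count of 0 allowed up to 3.63 CPM and 4.02 CPM in replicates 1 and 2, with 3 counts as the limit. Intervals and limits here and below cover counting error only, because several reads may stem from 1 molecule where no molecular identifiers were used. The annotated pseudogenes Psmb5-ps, Psmb6-ps, Psmb6-ps2 and Psmb7-ps2 had no reads either. The member Psmc3ip shares the first letters of its symbol with an ATPase gene but encodes a factor of meiotic recombination. It had 3 and 2 reads, the lowest level of all members.

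The 7 members of the constitutive beta ring had a median of 138 ± 20.9 CPM. Psmb1, a structural beta subunit, had 170 and 139 reads, or 206 and 186 CPM. Psmb6, which carries the site that cuts after acidic residues, had 168 and 133 reads, or 203 and 178 CPM. Psmb2 followed with 158 and 153 CPM, Psmb5 with 123 and 165 CPM and Psmb3 with 104 and 109 CPM. The ring was uneven: Psmb4 (53.2 and 40.2 CPM) and the catalytic Psmb7 (36.3 and 56.3 CPM) were below every other constitutive beta gene in both libraries. Psmb7 and Psmb4 did not differ beyond the spread of their libraries, at 46.3 ± 14.2 and 46.7 ± 9.18 CPM.

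The 7 members of the alpha ring had a median of 104 ± 19.4 CPM. Psma7 had 307 and 208 reads, or 371 and 279 CPM, the highest level of any member in replicate 1 but below Psmd2 in replicate 2. It stood well above the next alpha gene, Psma3, at 181 and 144 CPM. Psma2 had 121 and 138 CPM and Psma5 117 and 89.9 CPM. Psma6 (78.6 ± 6.86 CPM), Psma1 (65.7 ± 13.2 CPM) and Psma4 (60.3 ± 3.70 CPM) were the lowest, and the last of these did not differ from Psma1 beyond the spread of the libraries. Of the Psma7 level, 218 and 107 CPM were 1 partial model described below. The other Psma7 reads came to 154 and 172 CPM, below Psma3 in replicate 1 and above it in replicate 2.

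The 6 ATPases of the cap had the highest class median, 175 ± 12.8 CPM. Psmc3 had 192 and 204 reads (232 and 274 CPM), Psmc1 180 and 168 reads (218 and 225 CPM) and Psmc5 167 and 171 reads (202 and 229 CPM). These leading ATPase genes were above the other 3 in both libraries. Psmc4 had 131 and 144 CPM, Psmc2 113 and 111 CPM, and Psmc6 54.4 and 52.3 CPM, the lowest of the ring. The highest ATPase gene was 4.74 times the lowest.

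The 11 non-ATPase subunits of the cap had a median of 121 ± 3.79 CPM and a wide range. Psmd2, the scaffold on which ubiquitin shuttle factors dock, had 257 and 253 reads, or 311 and 339 CPM, and its mean of 325 ± 20.1 CPM was level with that of Psma7, 325 ± 65.3 CPM. Psmd7, the partner of the deubiquitinating subunit, had 192 and 197 CPM, while the deubiquitinating subunit itself, Psmd14, had 70.2 and 67.1 CPM. Psmd4, a ubiquitin receptor, had 131 and 170 CPM. Psmd1, a large scaffold of the base, had 145 and 150 CPM, below its relative Psmd2 in both libraries. The remaining lid subunits ran from Psmd3 (124 ± 3.62 CPM), Psmd12 (121 ± 4.64 CPM) and Psmd8 (115 ± 12.3 CPM) over Psmd6 (90.8 ± 5.07 CPM) and Psmd13 (71.0 ± 9.68 CPM) to Psmd11 (44.2 ± 9.52 CPM). Psmd11 had the lowest mean of the 26S genes, but it did not differ from Psmb7 and Psmb4 beyond the spread of the libraries. Psmb7 was below it in replicate 1 and Psmb4 in replicate 2.

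Activators, the inhibitor and the assembly chaperones were lower than core and cap. The 5 activator and inhibitor genes had a median of 26.9 ± 11.5 CPM. Psme3, the nuclear activator, had 84.7 and 73.8 CPM and stood above the interferon-responsive activator genes Psme2 (35.1 and 18.8 CPM) and Psme1 (20.6 and 12.1 CPM). The inhibitor gene Psmf1 had 36.3 and 34.9 CPM, and Psme4, a large nuclear activator, 8.47 and 6.71 CPM. The 7 assembly chaperones had a median of 17.9 ± 3.11 CPM, and all but Psmd5 (96.8 and 69.8 CPM) were under 30 CPM in both libraries. Psmd5, Psmd9 and Psmd10 help to build the ATPase ring, and Psmd10 and Psmd9 had 23.0 ± 1.68 and 17.9 ± 3.11 CPM. The chaperones of the core, Psmg1 to Psmg4, ran from 19.9 ± 11.1 CPM for Psmg2 down to 11.3 ± 2.77 CPM for Psmg4.

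**Figure D1:**
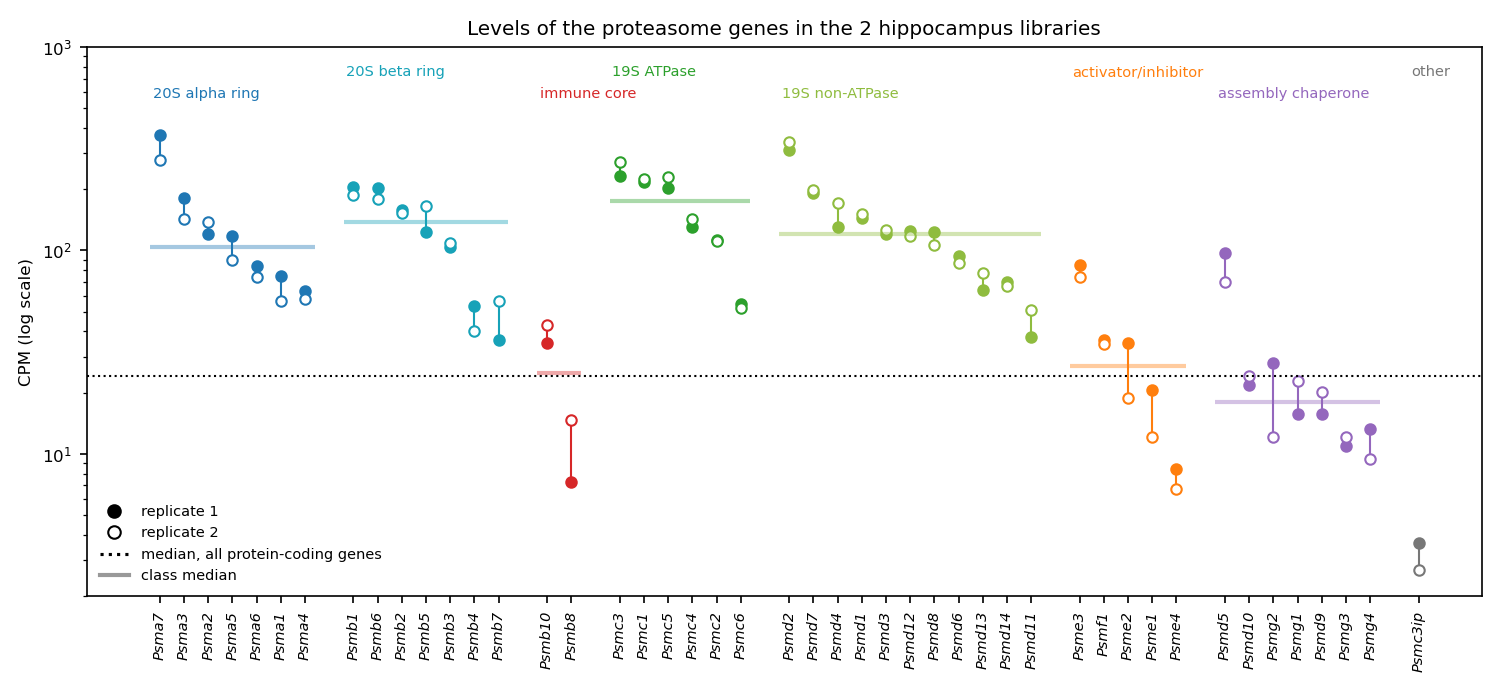
Level of each member in replicate 1 (filled) and replicate 2 (open), in CPM on a log scale, ordered by mean within its class; horizontal bars are class medians (mean of the 2 libraries), the dotted line is the median of all protein-coding genes, and the last gene is Psmc3ip. The means of core and cap genes lie between 44.2 and 325 CPM, while all but 2 of the other members have a mean under 40 CPM.

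As a group, the members were high. Their median was 82.7 ± 9.71 CPM, against 24.2 ± 0.0357 CPM over all protein-coding genes with reads in both libraries. A mean of 100 CPM or more was reached by 21 of the 46 members (45.7%), against 1897 of 13066 genes (14.5%), and all 21 were core or cap genes. The 14 constitutive core genes summed to 1812 ± 121 CPM and the 17 cap genes to 2445 ± 115 CPM. The particle takes up its core and cap subunits in equal numbers within each ring, whereas transcript levels of the 31 core and cap genes spanned 7.35-fold.

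These are levels per read, since 1 read stands for 1 cDNA whatever its length, and how well long and short cDNAs were recovered was not measured. Per kilobase of the main transcript, the order of the classes was different: the beta ring led with a median of 139 CPM per kb, followed by the ATPases at 117, the non-ATPase subunits at 63.7 and the alpha ring at 57.1 CPM per kb. On that scale Psma7 had 356 CPM per kb and Psmb6 239 CPM per kb, both of them short transcripts, and Psmd2 had 110 CPM per kb. The Psma7 value sets all its reads over the 914 bases of Psma7-201. Of these reads, 180 of 307 and 80 of 208 were a 506-base partial model described below. Psmd11 was the lowest core or cap gene on that scale, at 15.5 CPM per kb.

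Genes that work with the proteasome were also measured. The 14 partner genes outside the name rule were all detected and had a median of 72.9 ± 6.37 CPM. Among them were the cap's ubiquitin receptor Adrm1 (130 ± 2.19 CPM), the small cap subunit Sem1 (102 ± 10.1 CPM), the core maturation factor Pomp (112 ± 29.6 CPM) and the deubiquitinase Usp14 (148 ± 17.1 CPM). The 9 genes of ubiquitin shuttles and the p97 unfoldase had a median of 93.7 ± 11.2 CPM, led by Vcp, the unfoldase itself, at 280 ± 35.4 CPM and Ubqln4 at 182 ± 4.29 CPM. The 6 genes of the list around the transcription factor Nfe2l1 were lower, with a median of 23.5 ± 0.984 CPM and Maff at 0 reads. Nfe2l1 itself, which raises proteasome genes when the particle is inhibited, had 261 and 163 reads, or 316 and 219 CPM, and its relative Nfe2l2 had 9.68 and 17.4 CPM. None of the genes of these 3 lists was called between the libraries by the test given further below.

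Reads fall into classes by how their introns compare with the annotation. A full-splice read has a complete chain, either annotated or unannotated; a partial read has only a part of an annotated chain, the 3' part in most cases; and a genomic read overlaps the gene but follows no spliced transcript of it. Of the members' reads 84.3% ± 0.975 were full-splice, against 77.4% ± 0.386 of the reads of all protein-coding genes. Genomic reads took 2.31% ± 0.172 of the members' reads, against 9.90% ± 0.109 over all protein-coding genes. The 3' partial reads went the other way, at 11.0% ± 1.31 of the members' reads against 8.74% ± 0.343. Of the members' 461 and 346 such reads, Psma7 held 184 and 87 and Psmc2 held 90 and 81. Without these members, which were chosen after their values were seen and have no counterpart removed from the other genes, 5.50% ± 0.183 of the members' reads were 3' partial and 89.4% ± 0.273 were full-splice.

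Per gene, the median full-splice share was 90.5% over the 35 members with at least 20 reads in each library, against 84.9% over 5928 such protein-coding genes. The median genomic share was 0.763% against 3.78%, and the median 3' partial share was 5.35% against 4.62%. The members farthest from the rest were 4 in number: 3 had full-splice shares under 50%, namely Psmc2 (2.22% ± 1.43), Psma7 (46.4% ± 9.87) and Psmb10 (49.1% ± 1.22), and Psma3 had a genomic share of 26.8%.

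**Figure D2:**
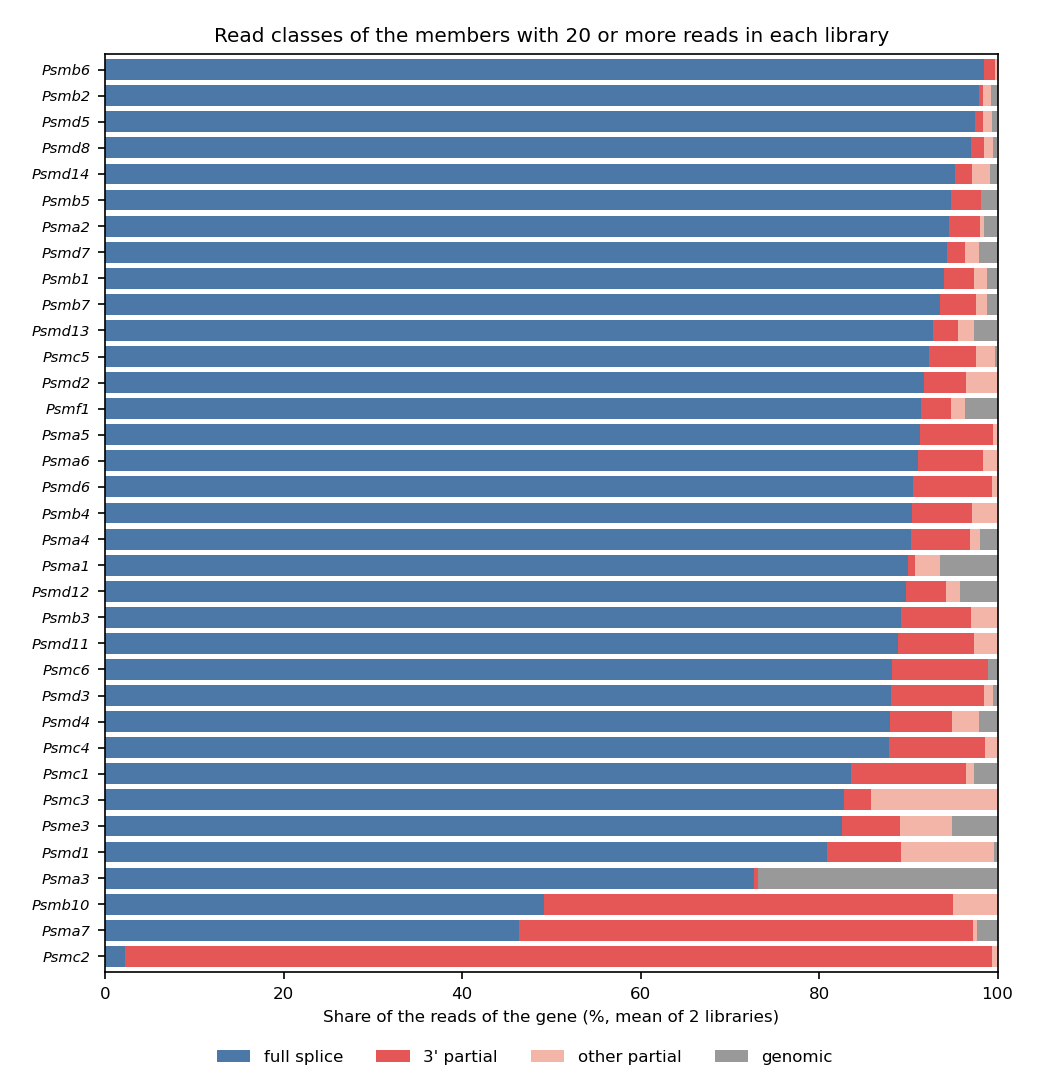
Mean share of reads per class (%, mean of the 2 libraries) for the 35 members with at least 20 reads in each library, highest full-splice share at the top. Psmc2, Psma7 and Psmb10 are mostly or largely 3' partial, and Psma3 has the widest genomic part, 26.8%.

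Nearly all reads of Psmc2, an ATPase of the cap, lacked the annotated first exon. The 13-exon transcript Psmc2-201 had 0 reads in both libraries. In its place 89 of 93 reads in replicate 1 and 80 of 83 in replicate 2 (96.0% ± 0.486) were 1 model with 12 exons, chr5:21786650-21803787, which starts with exon 2 of the annotated transcript. Exon 1 lies at chr5:21785283-21785517, and the annotated coding sequence begins in exon 2, at 21786689. By its 3' partial share, 97.2%, Psmc2 ranked 2 of 5928 genes. Whether these molecules start at exon 2 or were copied only that far was not tested.

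RefSeq lists 2 start sites for Psmc2, on GRCm38.p6, and they lie on either side of this difference, so a stretch before each is shown. In the first sequence the capital is the RefSeq start base, at 21785275. The second start base, at 21786747, lies 97 bases inside exon 2, past the annotated coding start at 21786689. The second sequence stops short of this start base, at 21786679. Its capitals are the first 30 bases of exon 2, where the 12-exon model begins.
Psmc2 first start, chr5:21785025-21785275, plus strand: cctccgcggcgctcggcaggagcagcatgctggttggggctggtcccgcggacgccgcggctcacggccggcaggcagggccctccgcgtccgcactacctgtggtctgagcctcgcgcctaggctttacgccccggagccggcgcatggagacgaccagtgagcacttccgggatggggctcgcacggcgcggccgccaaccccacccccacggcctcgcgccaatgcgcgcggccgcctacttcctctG
Psmc2 second start, chr5:21786497-21786679, plus strand: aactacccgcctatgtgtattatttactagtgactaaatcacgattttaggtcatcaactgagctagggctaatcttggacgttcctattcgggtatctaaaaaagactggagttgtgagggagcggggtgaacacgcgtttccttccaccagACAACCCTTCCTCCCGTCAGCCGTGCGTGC

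Psma7 also had 1 partial model with many reads, and its share was higher in replicate 1 than in replicate 2. A 4-exon model, chr2:180036374-180038187, took 180 of 307 reads in replicate 1 (58.6%, 52.9 to 64.2%) and 80 of 208 in replicate 2 (38.5%, 31.8 to 45.4%). The intervals did not overlap, though they cover counting error only. This model was picked after its values were seen, and partial shares were not tested between the libraries over all genes. The model holds the last 4 of the 7 exons of Psma7-201. The other Psma7 reads numbered 127 in replicate 1 and 128 in replicate 2, or 154 and 172 CPM. The 3' partial share of Psma7, 50.9%, ranked 117 of 5928 genes. The model begins at the edge of exon 4, which is all coding and is shown with its first 10 bases in capitals.
Psma7 exon 4, chr2:180038065-180038187, minus strand: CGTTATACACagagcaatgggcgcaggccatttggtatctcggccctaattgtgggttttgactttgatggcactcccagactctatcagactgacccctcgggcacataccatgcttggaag

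**Figure D3:**
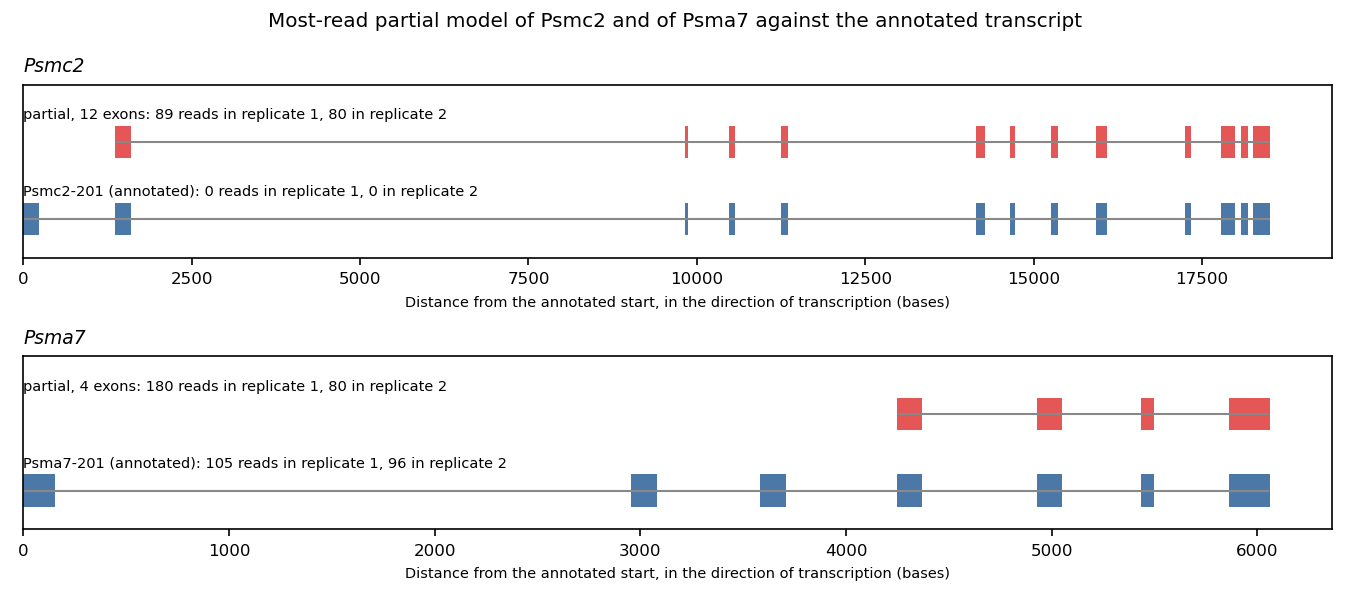
Exons (boxes) and introns (lines) of the most-read partial model and of the annotated transcript of Psmc2 and Psma7, by distance in bases from the annotated start in the direction of transcription. The Psmc2 model lacks the first exon and the Psma7 model the first 3, and the read counts are printed above each model.

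Other partial and genomic models held fewer reads. In Psma3, 34 and 29 reads (22.7% and 27.1%) formed single-exon genomic models that end at chr12:70995875 in both libraries, inside exon 11 of 11 and past the end of the coding sequence at 70994392. These were matched by their shared end, and their extent is uncertain, since the deposited length was 1 base in replicate 1 and 307 bases in replicate 2. The noncoding gene 3110056K07Rik lies on the other strand there, with 13 and 20 reads. In Psmc3, 27 and 29 reads (14.1% ± 0.108) covered only the last exon, and in Psmc1 a 10-exon 3' partial model had 17 and 19 reads (10.4% ± 1.32). This Psmc1 model starts at chr12:100110215, inside an intron of Psmc1-201, chr12:100110212-100112330, and so holds intron bases. It is 3649 bases long, against 1591 for Psmc1-201. The scaffold gene Psmd1 had a 5' partial model of 22 exons with 8 and 8 reads.

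Most members had 1 main transcript. Among the 33 members with a minimum of 20 full-splice reads per library, the dominant chain of introns took a median of 91.5% of full-splice reads, against 84.2% over 4819 such genes. It took 90% or more in 19 of these members (57.6%), against 38.2% of all such genes. At least 2 isoforms of 10% or more in each library were present in 4 members (12.1%), against 29.9% of all such genes. This count rests on the limits: it was 8 members from a 5% limit, 1 from a 20% limit and 7 in replicate 2 taken alone. With a minimum of 10 full-splice reads it was 5 members, and with 50 it was 3. Below the minimum of 20 reads, Psmd10, Psme1 and Psmg4 also had a second isoform of 10% or more in each library. No member had an unannotated chain as its dominant isoform, against 6.29% of all such genes, and Psmc2 had too few full-splice reads to be counted. Psmb5 had the annotated chain in all of its 98 and 115 full-splice reads, and Psma2 in 93 of 94 and 96 of 98. Of the reads on annotated transcripts, 97.2% ± 0.369 were on protein-coding ones, against 96.97% ± 0.0378 for all protein-coding genes.

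Among the 33 members with enough full-splice reads, those with 2 isoforms were Psmd4, Psmb6, Psmd5 and Psmd11. Psmd4, the ubiquitin receptor, was the most divided. Psmd4-202 took 58 of 94 full-splice reads in replicate 1 and 57 of 113 in replicate 2 (56.1% ± 7.96), and Psmd4-201 took 20 and 39 of them (27.9% ± 9.36). Psmd4-202 led in both libraries. The transcripts differ by 9 coding bases, chr3:95033909-95033917, at the end of exon 7 of Psmd4-201, so the reading frame is kept, and these bases are in capitals.
Psmd4 exon 7, chr3:95033909-95034026, minus strand: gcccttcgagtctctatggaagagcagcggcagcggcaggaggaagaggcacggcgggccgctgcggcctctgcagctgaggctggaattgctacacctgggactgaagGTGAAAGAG

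Psmb6, the catalytic subunit, had a short second transcript whose annotated start lies inside an intron. Psmb6-201 took 128 of 164 and 107 of 132 full-splice reads (79.6% ± 2.13), and Psmb6-202 took 35 and 23 (19.4% ± 2.77). Psmb6-202 has 2 exons, is annotated as a retained intron with no coding sequence, and held more reads than any other noncoding transcript of the members. As annotated, it starts within the fourth intron of Psmb6-201, chr11:70526674-70527178, and so lacks the exons that code for the catalytic threonine. Its own intron is shared with Psmb6-201, and isoforms were matched by introns. Reads of Psmb6-201 copied only as far as its last exons cannot be told apart from it. Where the 35 and 23 reads start was not tested. The 107 bases that are intron in Psmb6-201 are in capitals.
Psmb6-202 exon 1, chr11:70527072-70527323, plus strand: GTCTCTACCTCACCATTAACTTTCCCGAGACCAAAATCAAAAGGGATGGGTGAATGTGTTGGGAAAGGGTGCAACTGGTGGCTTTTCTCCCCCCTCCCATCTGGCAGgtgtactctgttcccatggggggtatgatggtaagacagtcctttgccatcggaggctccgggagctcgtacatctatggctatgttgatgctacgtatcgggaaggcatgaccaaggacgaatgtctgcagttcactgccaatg

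Psmd5, the chaperone of the ATPase ring, had the only unannotated isoform of 10% or more among these. Psmd5-201 took 65 of 79 and 37 of 50 full-splice reads (78.1% ± 5.85). A chain that skips exon 2 took 10 and 8 (14.3% ± 2.36). The exon has 145 bases, all coding and not a multiple of 3, and it is shown whole.
Psmd5 exon 2, chr2:34866893-34867037, minus strand: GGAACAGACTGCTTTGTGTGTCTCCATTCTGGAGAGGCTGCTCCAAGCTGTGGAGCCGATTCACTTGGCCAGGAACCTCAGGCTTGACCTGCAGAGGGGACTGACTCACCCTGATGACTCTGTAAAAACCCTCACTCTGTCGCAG
In Psmd11, a lid subunit, Psmd11-201 took 26 of 29 and 28 of 32 full-splice reads (88.6% ± 1.52), and Psmd11-214 took 3 and 4 (11.4% ± 1.52). Psmd11-214 keeps a 115-base intron, chr11:80471595-80471709, and both transcripts have a coding sequence of 1266 bases.

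Psma3, an alpha subunit, had a second transcript just short of the 10% limit in replicate 1, at 9.73%. Psma3-202 took 82 of 113 and 53 of 75 full-splice reads (71.6% ± 1.34). Psma3-201, annotated as a target of nonsense-mediated decay, took 11 of the 113 reads in replicate 1 and 9 of the 75 in replicate 2 (10.9% ± 1.60), and Psma3-203, which keeps a 77-base intron, took 6.43% ± 0.334. Psma3-201 begins exon 3 after a stretch of 5 bases, in capitals here, and its annotated coding sequence has 120 bases in place of 765.
Psma3 exon 3, chr12:70983319-70983442, plus strand: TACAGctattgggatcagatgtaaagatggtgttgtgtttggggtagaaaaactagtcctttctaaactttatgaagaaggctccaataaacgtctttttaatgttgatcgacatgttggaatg

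**Figure D4:**
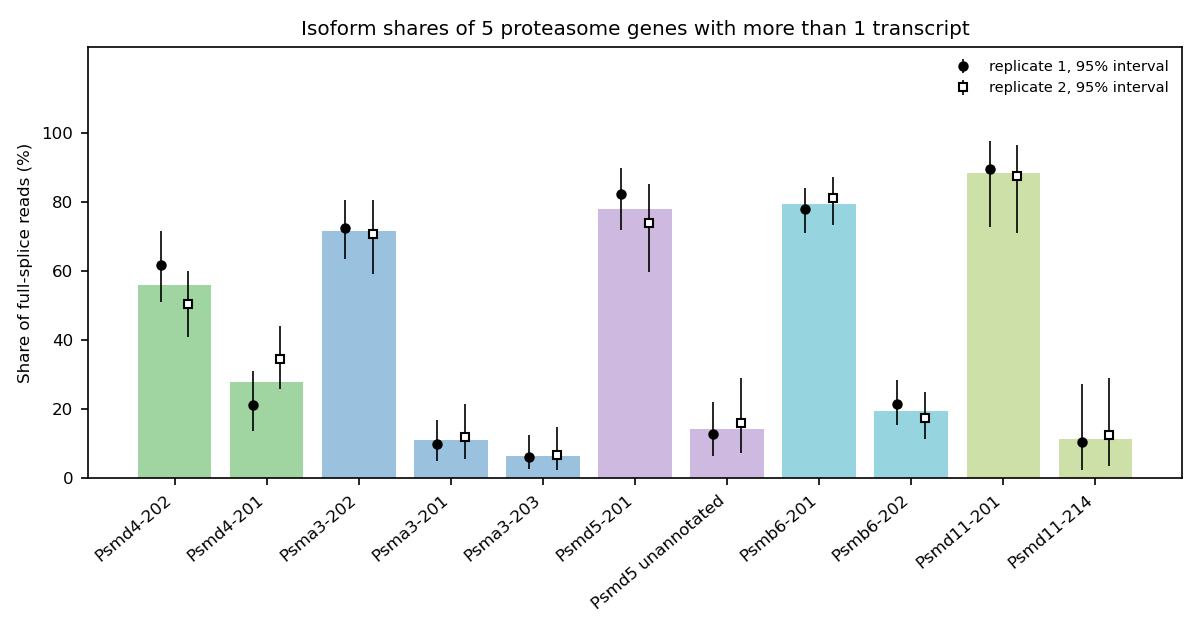
Share of full-splice reads (%) of the isoforms with a mean of 5% or more in Psmd4, Psma3, Psmd5, Psmb6 and Psmd11; bars are means of the 2 libraries, points are the libraries with exact 95% binomial intervals. In all 5 genes the same transcript leads in both libraries, from 56.1% in Psmd4 to 88.6% in Psmd11.

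Unannotated chains recurred, with a minimum of 5 reads per library, in 4 members (8.70%), 1 chain in each, against 968 of 13066 protein-coding genes (7.41%). Members had the higher median level, 82.7 against 24.2 CPM, so a limit in reads does not compare them at like depth. Of all reads, chains with an unannotated combination of splice sites took 3.16% in members against 7.55% over protein-coding genes. Those with an unannotated splice site took 2.55% against 4.24%. Besides the exon skip of Psmd5, Psmc4 had a chain that keeps a 142-base intron, chr7:28042508-28042649, with 7 and 9 reads (8.54% ± 2.07 of full-splice reads). Psma7 had a chain whose first exon runs 290 bases further, chr2:180041988-180042277, with 9 and 7 reads (6.87% ± 0.800). Psmc3 had a chain that keeps a 704-base intron, chr2:91057061-91057764, with 5 and 5 reads (3.05% ± 0.132). None of the kept stretches is coding in an annotated transcript.

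Levels were compared between the libraries with a two-sided exact binomial test per gene, over the 9062 genes with at least 20 reads in all, where a call needed 2-fold and a p under 0.05 after Benjamini-Hochberg adjustment. None of the 41 tested members was called. Over all genes tested 28 were called (0.309%), 13 of them higher in replicate 1 (0.143%) and 15 higher in replicate 2 (0.166%). At an unadjusted p under 0.05, 4 members passed (9.76%), against 7.42% of all tested genes: Psma7, Psmb5, Psmg2 and Psmd4. Psma7 had the lowest p of the members, 0.00147 by the exact test and 0.148 after adjustment, at a log2 ratio of 0.41 for replicate 1 over replicate 2. Among the 41 tested members the widest ratios were those of Psmg2 (23 and 9 reads, log2 ratio 1.16), Psme2 (29 and 14 reads, 0.88) and Psme1 (17 and 9 reads, 0.73), with none called after adjustment. Of the partner lists, Nfe2l1 had an adjusted p of 0.0411 by the exact test at a log2 ratio of 0.53, under the 2-fold limit.

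The share of the dominant isoform was compared in the same way with a two-sided Fisher's exact test. Of the 33 members tested, none was called and none had an unadjusted p under 0.05. Over all genes, 10 of 4819 were called (0.208%) and 175 of the 4819 had an unadjusted p under 0.05. At such low shares, 33 members are too few to be set apart from all genes. Psmd4 had the widest spread of the dominant share among the members with 2 isoforms, 61.7% in replicate 1 (58 of 94 reads) and 50.4% in replicate 2 (57 of 113).

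**Figure D5:**
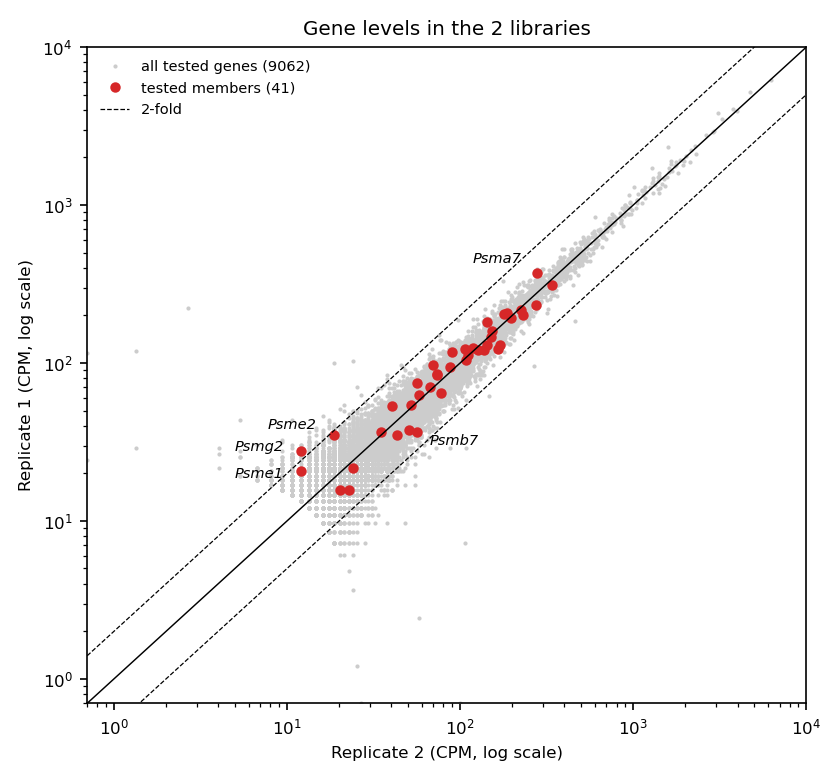
Level in replicate 1 against level in replicate 2, in CPM on log scales, for the 9062 tested genes (grey; values under 0.7 CPM drawn at the edge) and the 41 tested members (red); the solid line marks equal levels and the dashed lines a 2-fold difference. Every tested member but Psmg2 lies within the 2-fold lines.

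The promoters of the members were searched in the RefSeq table for GRCm38.p6, 300 bases each, from 250 before to 50 after the start, on both strands. Of the 46 members 39 matched by symbol, with 42 promoters. The letters TGANNNNGC, the core of the element that Nfe2l1 and its relatives bind, were in 24 of the 42 (57.1%), against 41.7% of 20150 promoters of protein-coding genes. CCAAT was in 13 (31.0%), against 37.8%, and TATAAA was in 4 (9.52%), against 12.1%. Counted per gene, TGANNNNGC was found for 22 of the 39 members (56.4%), against 45.6% of 16522 protein-coding genes, a narrower gap. These differences were not tested. Of the Psmc2 stretches printed above, the first has CCAAT and no TGANNNNGC, and the second has TGANNNNGC and no CCAAT. Such a match is a run of letters, not a measured binding site.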

How the data were processed

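The deposited values were raw counts of reads for each transcript model, whole numbers made by the authors with GENCODE M21 on mm10, per the text files deposited with the tables, and with TALON, per the file headers. Models with no read were not listed. The aligner, platform and versions were not given in the sources used here. Other deposited values were the exon number and the length of each model and, in the structure files, exon positions.

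Counts were summed per gene and scaled to CPM over reads outside the spike-ins. Classes of subunits and the 11 lists came from textbook roles. Members and lists were chosen with earlier results of these data known. Isoforms were matched between libraries by their introns, with the limits stated beside each result. Log2 ratios had 0.5 added to each count. The tests take reads as independent and compare 2 libraries, not conditions. They were tested on simulated data, where 50 of 50 genes changed 8-fold and 14 of 50 changed 2-fold were called among 9010 genes. Genes were named by rule: all members with a level, all with 2 isoforms, recurring unannotated chains, and the 3 largest library ratios among tested members; other members were named after their values were seen. How reads from overlapping or similar genes were shared out is not stated, and 22 members overlap another annotated gene, 9 of them on the same strand. Coding identities came from a global alignment in Biopython 1.88. Python 3.11.15, scipy 1.17.1 and, for TMM factors, edgeR 4.0.16 in R 4.3.3 were used.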

Additional observations from a re-analysis of the deposited data

Results flagged for a closer look

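Reads on the strand opposite to a member, which no comparison above uses, were above the limit of 3 counts in both libraries at 7 member loci, with 132 reads in replicate 1 and 126 in replicate 2 over all members, of which 128 and 121 were in single-exon models. Psme4 had 24 and 25 such reads, more than its own 7 and 5 reads. Psmd11 had 26 and 15 antisense reads beside 31 and 38 of its own, Psmd2 had 17 and 17, and Psmc2 had 14 and 10. Smaller numbers were read at Psmf1 (5 and 11), Psmd12 (9 and 5) and Psma3 (8 and 6). What these reads are was not tested.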

How the results depend on the processing

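No member was called different between the libraries under any of the 7 other settings tried for that test. No paired analysis was possible because there is only 1 group. Some levels moved. Without genomic models the class medians were 191 CPM for the ATPases and 128 CPM for the non-ATPases. With full-splice models only, scaled to those reads, they were 232 and 166 CPM, with 144 CPM for the alpha ring, 204.5 CPM for the beta ring, 24.5 CPM for the chaperones, 15.6 CPM for the immune core and 4.82 CPM for Psmc3ip. Per kb the ATPases had 117 CPM, the non-ATPases 63.7, the alpha ring 57.1, the activators 14.7 and the immune core 18.3. With the genes of the name rule that lack reads in at least 1 library added, Psmb9 among them, chosen after seeing the data, the immune core had 1.21 CPM. The median dominant share was 91.3% and 91.9% with a minimum of 10 and 50 full-splice reads, and 99.5% on annotated models only. Members with 2 isoforms numbered 8 from a 5% limit and 1 from a 20% limit. Leaving out a replicate gave 6 to 7 such members and a dominant share of 91.4286% to 91.4729%. Without Psma7 and Psmc2 the full-splice share was 89.4% and the 3' partial share 5.50%. With members weighted equally the genomic share was 3.91%. Recurring unannotated chains numbered 7 from 3 reads in each library and 0 from 10 reads. Members of few reads have the widest counting error.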
